A study of Mus musculus with 23 samples.

Results

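The PIWI proteins and the factors that make and load their small RNAs were followed through the mouse testis at the level of mRNA, in vivo and in organ culture. Their 10 genes were listed by name and function, by a rule that sets no threshold on a measured value, although earlier results of these data were known when the list was made. They were read from a deposited table of raw counts for 27466 genes. They were the PIWI genes Piwil1, Piwil2 and Piwil4, the helicase genes Mov10l1 and Ddx4, and Mael, Asz1, Gtsf1, Pld6 and Henmt1. All 10 passed the filter on low counts, which left 19255 genes for testing. A gene is said to be called where its edgeR adjusted p was under 0.05. Fold changes are on the log2 scale after TMM scaling, which sets libraries to a common level over most genes, and RLE factors and library size alone are given as other scalings.

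All tissue came from wild-type (wt) CD-1 male mice, an outbred stock. The youngest in vivo group was testis at 6.5 dpp (dpp, age in days after birth). Explants of such testes were kept in culture for 4, 16 or 30 days (D4, D16 and D30). D4 was matched in age to testes at 10.5 dpp, D16 to those at 22.5 dpp and D30 to those at 36.5 dpp. The culture medium held serum replacement and retinol, and the necrotic centre of the explants was cut away before RNA extraction, so the values describe the outer tissue. Tissue was fresh, or CSF (controlled slow frozen and thawed) for 3 of the libraries at 6.5 dpp and for 1 at D30. The RNA came from whole testes or pooled explants, and each library mixed germ and somatic cells. From the youngest to the oldest, 4, 3, 3 and 2 in vivo libraries and 3, 2 and 4 culture libraries were used, with 28351546 to 69029328 counted reads each. The labels number replicates and do not say whether they came from separate animals, so the p-values measure only the spread between these samples.

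PIWI proteins bind piRNAs, the small RNAs of the germ line, and use them as guides to silence transposons and to act on other transcripts. A long precursor is unwound, cut on the surface of mitochondria, loaded into a PIWI protein, trimmed and methylated at its end. In the mouse testis Piwil4 is known from fetal and perinatal germ cells, Piwil2 from those cells through meiosis, and Piwil1 from pachytene spermatocytes and round spermatids, where the most abundant piRNAs are made.

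By the RefSeq gene records of GRCm38.p6, Piwil1 lies on chromosome 5 from 128736071 to 128755474, Piwil2 on chromosome 14 from 70372477 to 70436898, and Piwil4 on chromosome 9 from 14701776 to 14740672. Mov10l1 lies on chromosome 15 from 88982891 to 89055152, Ddx4 on chromosome 13 from 112598333 to 112652633, Mael on chromosome 1 from 166201385 to 166238744, and Asz1 on chromosome 6 from 18050964 to 18109061. Gtsf1 lies on chromosome 15 from 103402458 to 103430445, Pld6 on chromosome 11 from 59783893 to 59787657, and Henmt1 on chromosome 3 from 108939454 to 108979885. The exons of 8 of these genes share no base with another gene in GENCODE M21. Of the exonic bases of Henmt1, 392 of 2675 also belong to Gm9857 on the opposite strand, and 137 of 5385 of those of Piwil4 belong to Gm10706 on the opposite strand. The strand setting of the counting was not given in the sources used here, so reads in those stretches cannot be assigned with certainty.

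The promoters were searched because 9 of these genes were higher at 22.5 dpp than at 10.5 dpp and Piwil4 was lower. The RefSeq promoter table (GRCm38.p6) held 11 windows for 9 of the genes, and the 250 bases before each start were read on both strands. The letters CACGTG, an E-box bound by basic helix-loop-helix factors, stood in 5 of the 11 windows, each of another gene, and in 6.02% of all 32851 windows. The letters AACNG, the core bound by MYB factors, stood in 9 of the 11 windows and in 74.2% of all windows. The 30 bases around each CACGTG are shown with these letters in capitals. They are followed by the upstream stretches of Mael, as a gene that was higher at 22.5 dpp, and of Piwil4, which was lower and has no CACGTG in either window. The Mael and Piwil4 stretches end before the annotated start of the gene. The RefSeq gene records of Piwil1, Ddx4, Mov10l1, Gtsf1 and Henmt1 begin upstream of the start used for their windows. The same holds for the Pld6 window without CACGTG and the Piwil4 window not shown. The windows of Henmt1 and Ddx4 lie wholly within their records, as do that Pld6 window and that Piwil4 window. The Ddx4 site and the Piwil1 site 154 bases before the start lie within these records, and the other Piwil1 site spans the beginning of the record. The Mov10l1 site lies before its record.
Piwil1, 179 bases before the start, chr5:128736055-128736084, plus strand: aaaaccgccaccCACGTGgcagccaatcag
Piwil1, 154 bases before the start, chr5:128736080-128736109, plus strand: atcagggcccagCACGTGtccacctcgccg
Ddx4, 29 bases before the start, chr13:112652322-112652351, minus strand: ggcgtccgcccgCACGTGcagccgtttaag
Mov10l1, 246 bases before the start, chr15:88982744-88982773, plus strand: ccttCACGTGctaaccgccaacctctcgtg
Mael, 223 bases before the start, chr1:166238950-166238979, minus strand: taccaggcctacCACGTGacaatccccgcc
Pld6, 33 bases before the start, chr11:59787673-59787702, minus strand: ggggcgggctggCACGTGttgggcgcgcaa
Mael, upstream, chr1:166238748-166238994, minus strand: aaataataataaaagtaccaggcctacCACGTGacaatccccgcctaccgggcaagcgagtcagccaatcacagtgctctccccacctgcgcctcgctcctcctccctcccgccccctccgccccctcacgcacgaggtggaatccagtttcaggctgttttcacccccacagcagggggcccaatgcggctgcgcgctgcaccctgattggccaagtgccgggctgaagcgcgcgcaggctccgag
Piwil4, upstream, chr9:14740734-14740922, minus strand: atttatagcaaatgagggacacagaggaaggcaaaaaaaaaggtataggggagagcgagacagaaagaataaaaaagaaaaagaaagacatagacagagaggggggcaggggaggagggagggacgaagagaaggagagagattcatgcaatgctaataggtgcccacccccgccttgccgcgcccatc
The other window of Pld6 has no CACGTG, and the windows of Asz1, Gtsf1 and Henmt1 have none. A match of these letters describes the window and is not evidence of binding.

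Several libraries stood apart from their stage. The fresh replicates 2 and 3 at 6.5 dpp held identical counts in all 27466 genes and were counted once. The library labelled 6.5 dpp fresh replicate 1 had 778 CPM (read counts scaled to the library total) of Piwil1 against 2.43 to 9.13 CPM in the other libraries of that age, and was left out. Its summed CPM of 6 spermatocyte markers (Sycp1, Sycp3, Meiob, Hormad1, Spo11 and Ldhc) was 2570, against 116 to 209 in the other 6.5 dpp libraries. In 6.5 dpp CSF replicate 3, genes with short transcripts (at most 2000 bases) lay higher than genes with long transcripts (at least 4000 bases) relative to the other libraries of the stage, by 1.12 on the log2 scale. The same difference was 0.67 in 36.5 dpp replicate 1 and 0.69 in D16 replicate 1, each set against the only other library of its stage. At 22.5 dpp it was -0.39 in replicate 2 and 0.37 in replicate 3. The 4 round spermatid markers (Acrv1, Spaca1, Tssk1 and Acr) summed to 110 CPM in 22.5 dpp replicate 2 against 262 and 266 CPM in the others. Gtsf1, Mael and Pld6 were lowest of the stage in that library, and Piwil2 and Mov10l1 highest. D30 fresh replicate 3 had 1070 CPM of the spermatocyte markers against 2900 to 4010 in the other D30 libraries. D16 replicate 2 had 1290 against 3750 CPM in D16 replicate 1. Such sums give most weight to the most abundant markers of a list, and the levels of single markers are not given. The median sum of the 6 spermatocyte markers was 4470 CPM at 22.5 dpp and 5780 CPM at 36.5 dpp. In that step the median log2 fold change of the 6 was -0.46, with 0 called higher and 1 lower. The sums are therefore not a measure of the number of spermatocytes. Among the 10 genes, Gtsf1, Mael and Pld6 were higher and Piwil1, Mov10l1 and Piwil2 lower than in the other libraries of the stage in 6.5 dpp CSF replicate 3 and 36.5 dpp replicate 1. The short Henmt1 was at -0.07 in 6.5 dpp CSF replicate 3 and at 0.54 in 36.5 dpp replicate 1. Asz1, Ddx4 and Piwil4 have transcripts of 2345, 3012 and 3304 bases and belong to neither class. They were at 1.22, -0.10 and -0.88 in 6.5 dpp CSF replicate 3 and at 0.78, 0.05 and -0.02 in 36.5 dpp replicate 1. In D16 replicate 1 the long Piwil1 (0.27) and Piwil2 (0.16) were higher, as the short genes were. The part that these libraries' composition or RNA quality played in any result was not tested.

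**Figure D1:**
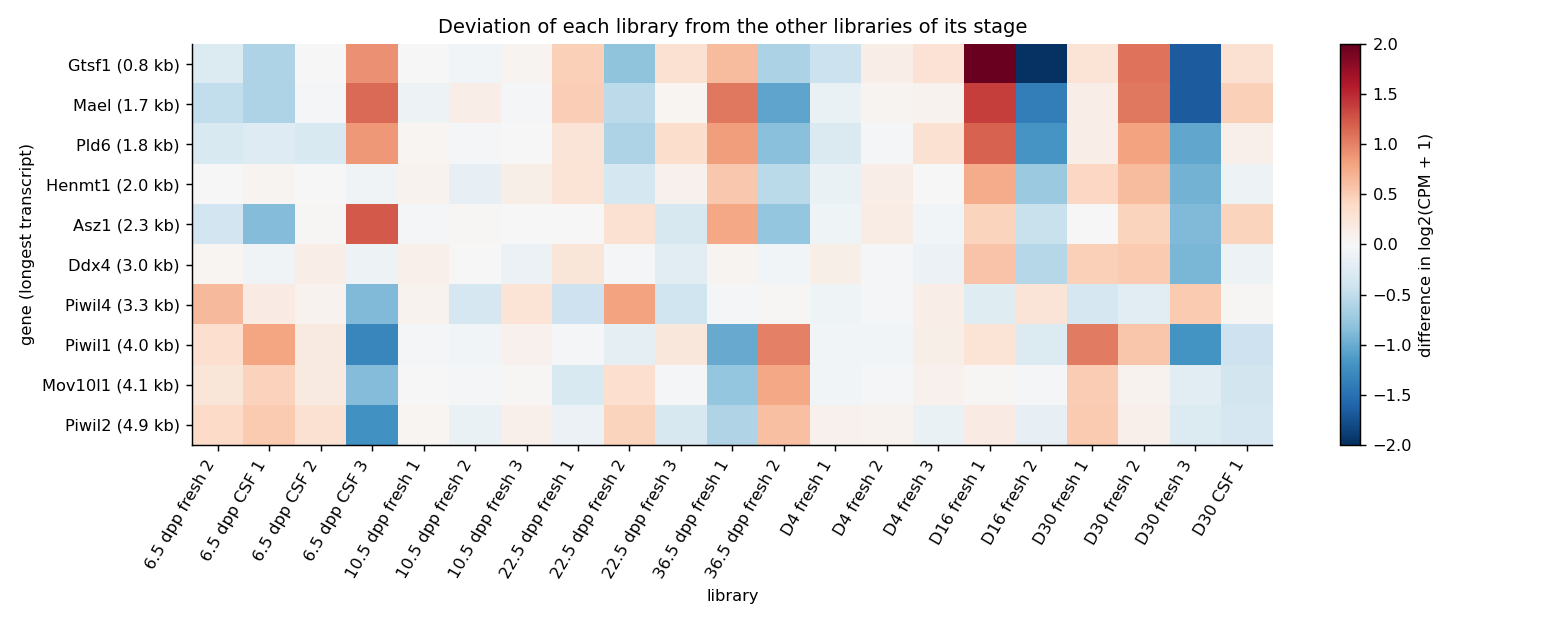
Difference in log2(CPM + 1) between each library (columns) and the mean of the other libraries of its stage, for the 10 genes ordered by the length of their longest GENCODE transcript in kb. In 6.5 dpp CSF replicate 3, Piwil1 was 1.30 lower and Mael 1.13 higher than in the other libraries, and in D16 replicate 1 Gtsf1 was 1.98 higher than in D16 replicate 2.

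Piwil1 was low at 6.5 and 10.5 dpp and had the largest change of the 10 genes between 10.5 and 22.5 dpp. Its CPM were 6.99, 9.13, 6.40 and 2.43 at 6.5 dpp (fresh, then CSF replicates 1 to 3) and 7.03, 6.93 and 7.46 at 10.5 dpp. At 22.5 dpp they reached 1082, 997 and 1209, and at 36.5 dpp they were 259 and 522. Every 22.5 dpp library lay above every other library in vivo, and the 6.5 and 10.5 dpp libraries overlapped. The mean rose 154-fold from 10.5 dpp (7.14 ± 0.28 CPM, SD, n = 3) to 22.5 dpp (1096 ± 107 CPM, SD, n = 3), with a log2 fold change of 7.57 (SE 0.53, edgeR adjusted p = 2.65e-09). The step to 36.5 dpp had a log2 fold change of -0.98 (SE 0.46, edgeR adjusted p = 0.0808) and was called with scaling by library size alone (-1.49) and without 36.5 dpp replicate 2 (-1.60).

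In culture the CPM of Piwil1 were 7.38, 7.43 and 8.10 at D4, 498 and 411 at D16, and 456, 355 and 142 at D30, with 214 in the frozen D30 explant. The mean also rose in culture, by a factor of 59.5, with a log2 fold change of 5.95 from D4 to D16 (SE 0.50, edgeR adjusted p = 7.16e-08). Both D16 libraries lay below all 3 at 22.5 dpp, with a log2 fold change of -1.43 (SE 0.46, edgeR adjusted p = 0.0323). That call was lost without 22.5 dpp replicate 1 or 3 or either D16 library, with values of -1.60 to -1.28 across the fits that left out 1 library. At D30 the libraries overlapped with those at 36.5 dpp in CPM, and the TMM-scaled log2 fold change was -1.04 (SE 0.41, edgeR adjusted p = 0.0308). It was not called by library size alone (-0.42), nor without 36.5 dpp replicate 2 (-0.44), D30 fresh replicate 3 or the D30 CSF library. In such mixed tissue, fewer cells of a type and less RNA per cell cannot be told apart.

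Piwil2, which encodes the PIWI protein MILI, was already abundant at the youngest age. Its CPM at 6.5 dpp were 279.7, 299 and 266, with 121.5 in CSF replicate 3, and at 10.5 dpp they were 311, 286 and 319. They were 516, 670.1 and 471 at 22.5 dpp and 144 and 218 at 36.5 dpp, so that the oldest testes fell below all libraries at 10.5 and 22.5 dpp. The rise to 22.5 dpp had a log2 fold change of 1.14 (SE 0.26, edgeR adjusted p = 0.00097), and the fall to 36.5 dpp one of -1.09 (SE 0.29, edgeR adjusted p = 0.00535). The fall was not called without 36.5 dpp replicate 1 (-0.81). Cultured tissue gave 211, 210 and 191 CPM at D4, 346 and 309.5 at D16, and 294, 236, 194 and, in the frozen explant, 188 at D30. The step from D4 to D16 was not called (0.73, edgeR adjusted p = 0.0681). The D16 libraries lay below all 22.5 dpp libraries (log2 fold change -0.90, SE 0.29, edgeR adjusted p = 0.0327), a call that was lost in each of the 5 fits that left out 1 library (-1.0 to -0.79). Between D30 and 36.5 dpp the log2 fold change was -0.30 (edgeR adjusted p = 0.33) with TMM and 0.33 by library size alone, and neither was called.

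Unlike Piwil1 and Piwil2, Piwil4, which encodes the nuclear PIWI protein MIWI2, fell between 10.5 and 22.5 dpp. Its CPM declined from 17.8, 13.6, 12.9 and 7.48 at 6.5 dpp and 12.1, 9.84 and 13.4 at 10.5 dpp to 2.69, 5.51 and 2.72 at 22.5 dpp and 0.772 and 0.797 at 36.5 dpp. The 22.5 dpp libraries lay below all younger libraries and above both at 36.5 dpp. The log2 fold change was -1.42 from 10.5 to 22.5 dpp (SE 0.28, edgeR adjusted p = 0.000306) and -1.68 from 22.5 to 36.5 dpp (SE 0.35, edgeR adjusted p = 0.000775). Explants held 8.92, 9.18 and 10.0 CPM at D4, 4.68 and 5.75 at D16, and 1.93, 2.13, 3.58 and 2.51 at D30, the last in the frozen explant. The steps from D4 to D16 (-0.80, edgeR adjusted p = 0.0775) and from D16 to D30 (-1.02, edgeR adjusted p = 0.0887) were not called, whereas the D30 libraries all lay above both 36.5 dpp libraries. Piwil4 was the only gene of the 10 called higher in culture than in the matched testis with TMM, with a D30 level at 323% of the 36.5 dpp mean and a log2 fold change of 1.04 (SE 0.33, edgeR adjusted p = 0.00994). The call was lost without either 36.5 dpp library (0.86 to 1.14 over the 6 fits), and the value was 1.69 by library size alone. The summed spermatogonial markers (Gfra1, Zbtb16, Nanos3, Kit, Stra8 and Uchl1) were 379 to 513 CPM at D30 and 103 to 106 CPM at 36.5 dpp, with 3 of 6 called higher and none at 0, and the part of this difference in the Piwil4 value was not tested.

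**Figure D2:**
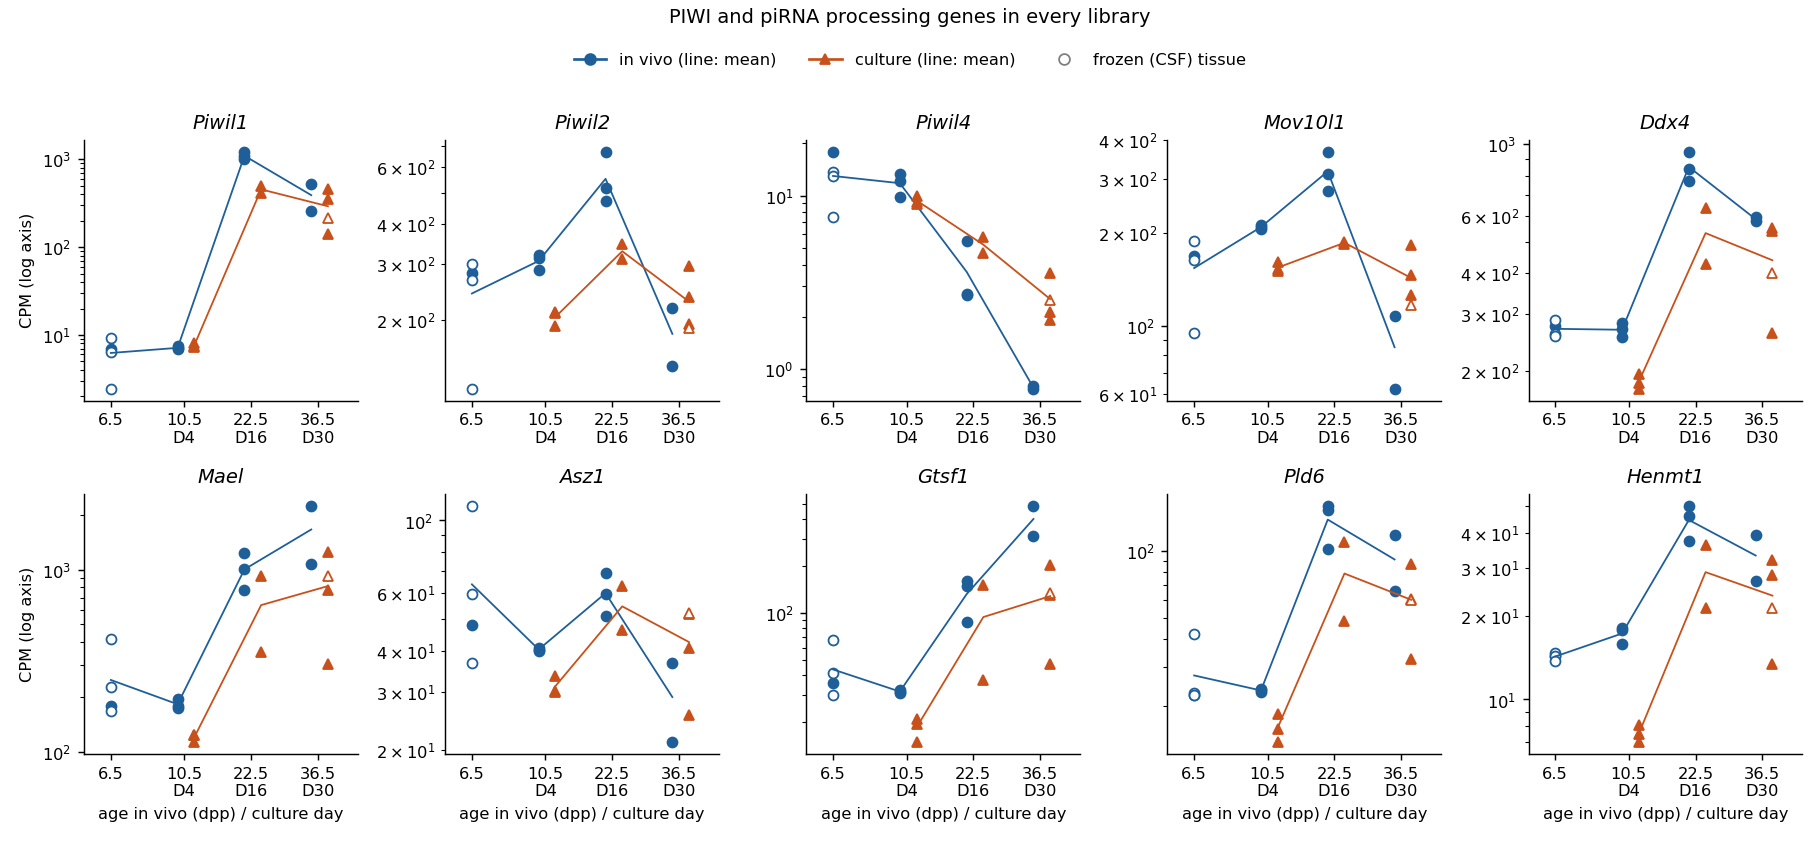
CPM of the 10 genes on log axes in each library, in vivo (blue circles) and in culture (orange triangles), with open symbols for frozen tissue and lines through the stage means. Piwil1 climbed from 6.93 to 7.46 CPM at 10.5 dpp to 997 to 1209 CPM at 22.5 dpp, while Piwil4 ended at 0.772 and 0.797 CPM at 36.5 dpp.

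Mov10l1, the helicase that binds piRNA precursors, followed the course of Piwil2. Its CPM were 169, 189, 163 and 94.3 at 6.5 dpp, 209, 206 and 212 at 10.5 dpp, 273, 367 and 312 at 22.5 dpp, and 62.2 and 108 at 36.5 dpp. Both the rise to 22.5 dpp (log2 fold change 0.89, SE 0.23, edgeR adjusted p = 0.00261) and the fall to 36.5 dpp (-1.38, SE 0.27, edgeR adjusted p = 0.000432) were called, and no library of either stage overlapped with its neighbour. The explants had 149.9, 152 and 160.5 CPM at D4, 187 and 185 at D16, and 182, 146, 126 and 117 at D30, and the step from D4 to D16 was not called (0.32, edgeR adjusted p = 0.394). The D16 libraries were below all at 22.5 dpp (log2 fold change -0.92, SE 0.26, edgeR adjusted p = 0.0177), a call lost without either D16 library (-0.98 to -0.87 over the fits). The D30 libraries were above both at 36.5 dpp in CPM, at 168% of their mean. That difference was 0.75 and called by library size alone, but 0.11 with TMM (edgeR adjusted p = 0.693) and -0.15 with RLE factors.

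Ddx4, the germ cell helicase VASA, tracks germ cells of most stages. It had 275, 259.6, 288 and 255 CPM at 6.5 dpp and 280.2, 268 and 254.5 at 10.5 dpp, with no separation between these ages. It rose to 947, 838 and 770.4 CPM at 22.5 dpp (log2 fold change 1.97, SE 0.25, edgeR adjusted p = 3.02e-06), and the 597 and 578 CPM at 36.5 dpp gave a difference of -0.03 (edgeR adjusted p = 0.93), with 0.16 under RLE factors and -0.54 by library size alone, none of them called. In culture it had 196, 183 and 176 CPM at D4, 636 and 429 at D16, and 541, 552, 262 and 400.1 at D30. The rise to D16 was called (1.58, SE 0.27, edgeR adjusted p = 0.000198). Both later culture times lay below the matched testis, with -0.84 at D16 (SE 0.28, edgeR adjusted p = 0.0342) and -1.05 at D30 (SE 0.25, edgeR adjusted p = 0.00122). The D16 call was lost without 22.5 dpp replicate 1 or 3 or D16 replicate 2 (-1.17 to -0.56 over the 5 fits), and was not made by library size alone (-0.68). The D30 call held in all 6 fits that left out 1 library (-1.19 to -0.85) but not by library size alone (-0.42).

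Mael and Gtsf1 had their highest mean CPM at 36.5 dpp, unlike the other genes. Mael encodes Maelstrom, which is needed for transposon silencing and piRNA biogenesis, and Gtsf1 a zinc finger cofactor of PIWI proteins. Mael had 179, 169, 228 and 418 CPM at 6.5 dpp, 174.5, 195 and 179.5 at 10.5 dpp, 1232, 773 and 1001 at 22.5 dpp, and 2239 and 1074 at 36.5 dpp. Gtsf1 had 35.7, 29.7, 41.4 and 67.5 CPM at 6.5 dpp, 31.3, 30.8 and 32.3 at 10.5 dpp, 160.2, 88.3 and 148 at 22.5 dpp, and 487 and 313 at 36.5 dpp. Both rose from 10.5 to 22.5 dpp without overlap, Mael by 2.77 on the log2 scale (SE 0.50, edgeR adjusted p = 0.000138) and Gtsf1 by 2.39 (SE 0.52, edgeR adjusted p = 0.000685). Only Gtsf1 passed the test in the step to 36.5 dpp (2.08, SE 0.55, edgeR adjusted p = 0.00447), where Mael had 1.21 (SE 0.52, edgeR adjusted p = 0.0602) and was called without 36.5 dpp replicate 2 (1.63). The difference between these values was not tested.

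In culture Mael had 113, 124 and 125 CPM at D4, 924 and 353 at D16, and 776, 1244, 304 and 923 at D30. Gtsf1 had 14.9, 19.6 and 21.1 CPM at D4, 151 and 37.5 at D16, and 131, 202, 47.2 and 133.5 at D30. The lower value at D16 was in replicate 2 for both and the lowest at D30 in fresh replicate 3, the libraries with the fewest spermatocyte marker reads. From D4 to D16 Mael rose by 2.47 (SE 0.53, edgeR adjusted p = 0.00185) and Gtsf1 by 2.41 (SE 0.55, edgeR adjusted p = 0.00315), and both calls were lost without D16 replicate 1, where the values were 1.58 and 1.05. Against 22.5 dpp neither gene was called at D16, with -0.65 for Gtsf1 (edgeR adjusted p = 0.397) and -0.81 for Mael (edgeR adjusted p = 0.268). Without D16 replicate 1 Gtsf1 was called lower (-2.02), and without D16 replicate 2 its value was 0.04. At D30 Gtsf1 stood at 32.1% and Mael at 49% of the 36.5 dpp mean, with every D30 library below both 36.5 dpp libraries for Gtsf1 and an overlap for Mael. The log2 fold change was -2.26 for Gtsf1 (SE 0.50, edgeR adjusted p = 0.000757) and -1.65 for Mael (SE 0.48, edgeR adjusted p = 0.00587), and by library size alone both were still called lower (-1.64 and -1.03). The Mael call was lost without 36.5 dpp replicate 1 (-1.06). The 4 round spermatid markers (Acrv1, Spaca1, Tssk1 and Acr) summed to 99 to 247 CPM at D30 and 909 to 1020 CPM at 36.5 dpp, with 4 of 4 called lower, and the part of this difference in the values of Gtsf1 and Mael was not tested.

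Asz1 and Pld6 act at the mitochondrial surface, Asz1 as a scaffold and Pld6 as the nuclease that cuts piRNA precursors, and they did not move alike. Asz1 had 47.9, 36.9, 59.6 and 111 CPM at 6.5 dpp, 40.0 to 40.9 at 10.5 dpp, 59.8, 68.95 and 51.3 at 22.5 dpp, and 36.8 and 21.0 at 36.5 dpp. Its rise to 22.5 dpp was the weakest of the 9 (log2 fold change 0.86, SE 0.36, edgeR adjusted p = 0.0449) and was lost in each of the 6 fits that left out 1 library (0.82 to 0.94). The step to 36.5 dpp was -0.54 (edgeR adjusted p = 0.271) and was called by library size alone (-1.05). Pld6 had 22.4, 23.0, 22.45 and 42.0 CPM at 6.5 dpp, 23.9, 23.0 and 23.6 at 10.5 dpp, 153, 102 and 160.2 at 22.5 dpp, and 117.5 and 65.7 at 36.5 dpp. It rose by 2.87 to 22.5 dpp (SE 0.41, edgeR adjusted p = 1.14e-05) and did not pass the test afterwards (-0.11, edgeR adjusted p = 0.845, and 0.08 under RLE factors).

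In culture Asz1 had 29.9, 33.55 and 30.3 CPM at D4, 63.2 and 46.2 at D16, and 40.9, 51.8, 25.5 and 52.0 at D30, and it passed the test in none of the 3 age-matched comparisons. Its D30 value against 36.5 dpp was -0.07 with TMM and 0.56 by library size alone. Pld6 had 13.7, 15.7 and 18.4 CPM at D4, 110.1 and 48.2 at D16, and 60.9, 87.3, 32.75 and 59.85 at D30. Pld6 rose from D4 to D16 (2.37, SE 0.43, edgeR adjusted p = 0.000385), was not called at D16 against 22.5 dpp (-0.97, edgeR adjusted p = 0.107, but called without D16 replicate 1 at -1.72), and was lower at D30 than at 36.5 dpp (-1.22, SE 0.39, edgeR adjusted p = 0.0104). That last call was lost by library size alone (-0.60) and without 36.5 dpp replicate 1 (-0.78), where its CPM was the higher of the pair.

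Henmt1, the methyltransferase that protects the ends of piRNAs, had the lowest level relative to the testis of the 10 genes after 4 days of culture. It had 14.3, 14.8, 14.3 and 13.8 CPM at 6.5 dpp and 17.9, 15.9 and 18.2 at 10.5 dpp, against 6.99, 8.08 and 7.475 at D4. The D4 libraries lay below all of both younger in vivo ages, at 43.4% of the 10.5 dpp mean, with a log2 fold change of -1.12 against 10.5 dpp (SE 0.28, edgeR adjusted p = 0.0188) and of -0.91 against 6.5 dpp (SE 0.27, edgeR adjusted p = 0.0231). The size stayed between -1.17 and -1.07 in the fits that left out 1 library, and the call against 10.5 dpp was lost without 10.5 dpp replicate 1 or 3 or any D4 library. The call against 6.5 dpp was lost without any D4 library (-0.96 to -0.85 over the 7 fits). Henmt1 then rose both in vivo, to 50.35, 37.5 and 46.1 CPM at 22.5 dpp (1.67, SE 0.29, edgeR adjusted p = 7.68e-05), and in culture, to 36.4 and 21.4 CPM at D16 (2.00, SE 0.31, edgeR adjusted p = 8.97e-05). At D16 it was not called against 22.5 dpp (-0.79, edgeR adjusted p = 0.0745), but was without D16 replicate 1 (-1.25) or 22.5 dpp replicate 2. At D30 it had 28.25, 32.0, 13.4 and 21.45 CPM against 39.5 and 26.9 at 36.5 dpp, with a log2 fold change of -1.10 (SE 0.29, edgeR adjusted p = 0.00264) that was not called by library size alone (-0.48) or without 36.5 dpp replicate 1 (-0.83).

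Levels of different genes were compared as CPM per kb of the longest transcript. Mael stood first at each of the 7 stages, from 71.3 ± 3.9 at D4 to 980 ± 487 CPM per kb at 36.5 dpp. Ddx4 was second from 6.5 to 22.5 dpp and at D4 and D16, and Gtsf1 took that place at 36.5 dpp and D30. Piwil1 stood last of the 10 at 6.5 dpp, 10.5 dpp and D4 (1.55, 1.78 and 1.90 CPM per kb) and held rank 3 at 22.5 dpp with 273 CPM per kb, next to Ddx4 with 283. At D16 Piwil1 and Gtsf1 had close means of 113 and 115 CPM per kb. Piwil4 had the lowest level at 22.5 and 36.5 dpp and at D16 and D30, at 0.238 (36.5 dpp) to 1.58 CPM per kb (D16).

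Counted together, the 10 genes did not change between 6.5 and 10.5 dpp by the test and most changed between 10.5 and 22.5 dpp. In the earlier step edgeR called 0 of 10, where 0.675% of all genes were called higher and 0.467% lower. At an unadjusted p under 0.05 there was 1 gene, Asz1, and DESeq2 also called 0. From 10.5 to 22.5 dpp 9 of 10 were called higher and 1 lower, against 33.6% and 27.9% of all genes, and their median log2 fold change was 1.82 against 0.06 over all genes tested. In the same step all 6 spermatocyte markers were called higher, with sums of 177 to 235 CPM and 3110 to 4880 CPM, and all 4 round spermatid markers, with 4.23 to 5.69 CPM and 110 to 266 CPM. All 6 spermatogonial markers (881 to 911 and 211 to 362 CPM) were called lower. Of 5 Sertoli cell markers 4 were called lower and 1 higher, with sums over all 5 of 1450 to 1500 and 315 to 543 CPM. No marker of these lists was at 0 at these ages. The part of these differences in the values of the 10 genes was not tested. From 22.5 to 36.5 dpp 1 of 10 was called higher and 3 lower, against 23.3% and 27.5% of all genes, with a median of -0.33 against -0.13. The share of calls that were higher over all genes was 45.9% in that step with TMM, 56% with RLE factors and 27.9% by library size alone, and 54.6% and 43.8% in the step before it with TMM and by library size.

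In culture 2 genes were lower after the early step, 6 rose in the middle step, and 0 passed the test in the last. Between 6.5 dpp and D4, Asz1 (-1.04, SE 0.34, edgeR adjusted p = 0.0373) and Henmt1 were called lower and 0 of 10 higher, against 10.1% and 10.8% of all genes. The Asz1 call was lost without 6.5 dpp CSF replicate 2 or 3 or any D4 library, and its value without CSF replicate 3 was -0.56. From D4 to D16 Piwil1, Ddx4, Mael, Gtsf1, Pld6 and Henmt1 rose and 0 were called lower, against 18.4% and 5.48% of all genes, with a median over the 10 of 1.79 against 0.03. From D16 to D30 0 of 10 were called, against 1.46% of all genes higher and 0.332% lower. At an unadjusted p under 0.05 there was 1, Piwil4, which DESeq2 called.

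Against the matched testis, how many genes were called lower at D4 depended on which libraries set the spread. At D4, 1 of 10 was called lower and 0 higher with the spread shared over all 7 stages, against 3.18% and 4.92% of all genes. When only the 6 libraries at D4 and 10.5 dpp were fitted, 8 of 10 were called lower and 0 higher, against 19.4% and 20.3% of the 16288 genes tested. In that fit the differences ran from -0.27 (Asz1, SE 0.09, edgeR adjusted p = 0.0274) to -1.11 (Henmt1, SE 0.11, edgeR adjusted p = 2.95e-05), with -0.48 for Piwil2, -0.44 for Ddx4, -0.50 for Mael and -0.67 for Gtsf1. Piwil1 had 0.20 (edgeR adjusted p = 0.179) and Piwil4 -0.23 (edgeR adjusted p = 0.165), and the libraries of the groups overlapped for both genes. The spermatocyte markers moved the other way, with sums of 321 to 385 CPM at D4 and 177 to 235 CPM at 10.5 dpp and 2 of 6 called higher. The summed spermatogonial markers were 699 to 827 CPM at D4 and 881 to 911 CPM at 10.5 dpp, with 0 of 6 called. The part that either list played in the lower values was not tested.

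At D16, 4 of 10 were called lower than at 22.5 dpp, which were Piwil1, Piwil2, Mov10l1 and Ddx4, and 0 higher, against 11.8% and 14% of all genes. The median over the 10 was -0.83 against -0.08 over all genes tested. No call was left with 6.5 dpp fresh replicate 1 in the fit or without D16 replicate 2, and 1 was left without 22.5 dpp replicate 1 or 3. The 6 spermatocyte markers summed to 1290 to 3750 CPM at D16 and 3110 to 4880 CPM at 22.5 dpp, with 0 of 6 called. Their median log2 fold change was -0.79, close to that of the 10 genes. For the 4 round spermatid markers the median was -1.2, with 0 called, and for the 6 spermatogonial markers 0.58, with 1 called higher. The part of these differences in the values of the 10 genes was not tested. Of 5 Sertoli cell markers 4 were called higher and 1 lower, and all 5 summed to 904 to 1450 CPM against 315 to 543 CPM. At D30, 6 of 10 were called lower than at 36.5 dpp and 1 higher, against 35% and 32.4% of all genes, and the median was -1.04 against -0.03. Over all genes, 48% of the calls at D30 were higher with TMM, 40% with RLE factors and 65.8% by library size alone, and the median of all genes was 0.60 by library size. At 36.5 dpp, Prm1, Prm2, Tnp1 and Tnp2, the elongating spermatid markers, summed to 16200 to 21200 CPM, against 331 to 1600 CPM at D30. Over all genes, 54.3% of the calls at D16 were higher with TMM, 43.9% with RLE factors and 68% by library size alone, and 60.7% at D4 with TMM and 50.1% by library size.

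**Figure D3:**
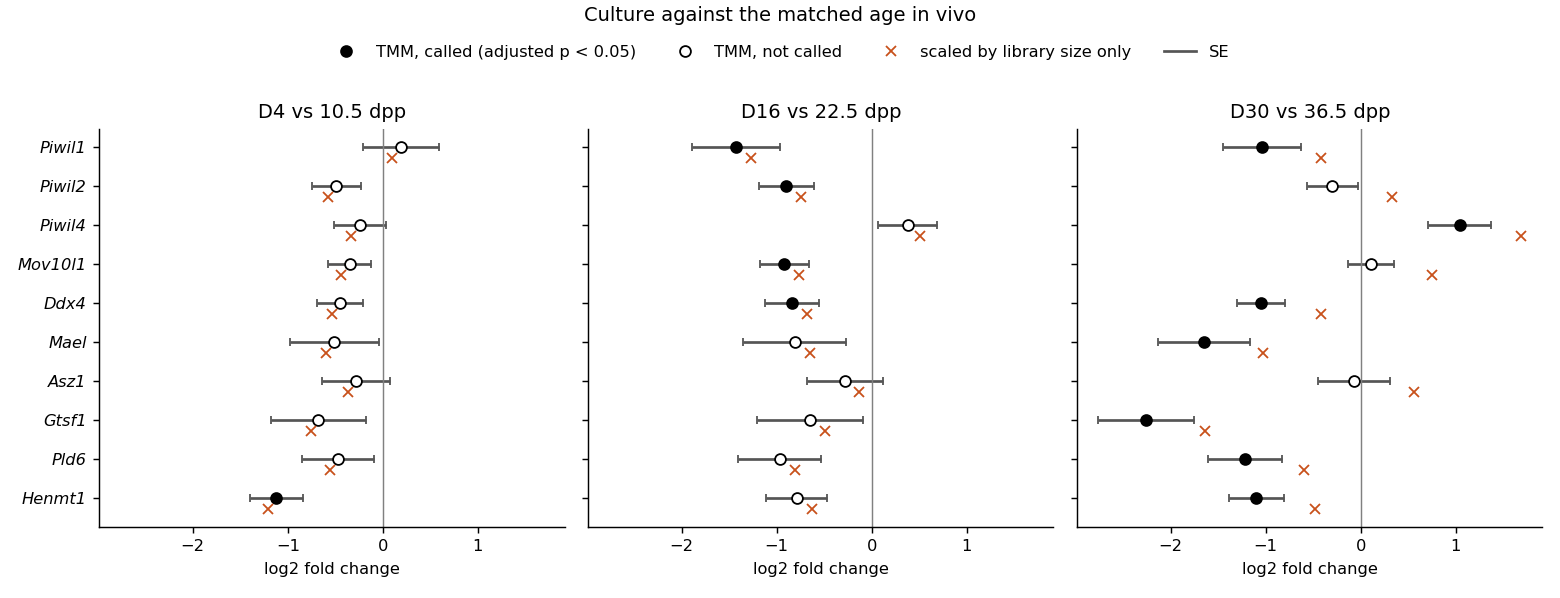
Log2 fold change (edgeR, TMM) of the 10 genes at D4, D16 and D30 against the testis of matched age, with SE bars, filled where called, and crosses for the same value scaled by library size alone. At D30 the crosses lay to the right of every TMM value, and Piwil4 was the only gene called higher with TMM (1.04).

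The culture effect was compared between times as a difference of differences. Between D4 and D16 it differed for 0 of 10 genes by edgeR, against 5.26% of all genes higher and 4.36% lower. Piwil1, with -1.62 (SE 0.61, edgeR adjusted p = 0.0974), was the only gene at an unadjusted p under 0.05, and DESeq2 called it. Between D16 and D30 the effect differed for Mov10l1 alone (1.03, SE 0.36, edgeR adjusted p = 0.0481), which was lower than in vivo at D16 and not at D30, against 11.5% of all genes higher and 8.63% lower. That call was lost without any of the 22.5 dpp or D16 libraries, 36.5 dpp replicate 1, or D30 fresh replicate 1 or 2 (8 of 11 fits, with values of 0.68 to 1.5 over all of them), and neither DESeq2 nor RLE factors made it (0.87). Among all calls of these 2 contrasts 54.7% and 57% were higher with TMM and 73.2% and 82.1% by library size alone. No difference between times was called for Gtsf1 (-1.60, SE 0.75, edgeR adjusted p = 0.131), although it was called lower at D30 and not at D16, and the value passed the test without D16 replicate 2.

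The other piRNA pathway genes were given as a list of 21, made up of Tudor domain proteins, trimming and loading factors, nuclear silencing factors, transcription factors of piRNA precursors and further PIWI partners. From 10.5 to 22.5 dpp 15 of 21 were called higher and 3 lower, and from 22.5 to 36.5 dpp 2 were called higher and 10 lower. From D4 to D16 12 of 21 were called higher and 1 lower, and from D16 to D30 0 higher and 1 lower. From 6.5 dpp, 0 of 21 were called by edgeR at 10.5 dpp (5 at an unadjusted p under 0.05, and 2 by DESeq2), and 3 were called lower at D4. The background shares of all genes are those given for the 10 genes in each comparison.

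The Tudor domain proteins, which tether PIWI proteins in germ granules, were the largest group of the 21. They made up most of the genes called at D16. There, 8 of the 21 were called lower and 1 higher than at 22.5 dpp. Of these, 7 were Tudor domain genes, with log2 fold changes of -1.60 for Tdrd6 (SE 0.44, edgeR adjusted p = 0.0151), -1.33 for Tdrd9, -1.14 for Tdrd1, -1.07 for Tdrd7, -0.99 for Tdrd5, -0.90 for Rnf17 and -0.83 for Stk31. The edgeR adjusted p of these 7 ran from 0.0151 to 0.0363. Values with single libraries left out are not given for them. Tdrd6, a component of the chromatoid body of spermatids, had 441 and 258 CPM at D16 against 1146, 637 and 1027 CPM at 22.5 dpp, without overlap. Btbd18, a nuclear protein needed for transcription of piRNA precursors, was also lower (-0.68, SE 0.24, edgeR adjusted p = 0.0418), and Morc1, a nuclear factor in transposon silencing, was higher (0.61, SE 0.17, edgeR adjusted p = 0.0161). By library size alone 6 were called lower and 1 higher, without Stk31 (-0.67) and Btbd18 (-0.53), and with RLE factors 10 were called lower and 1 higher.

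At D30, 10 of the 21 were called lower and 3 higher than at 36.5 dpp. Gtsf1l, a relative of Gtsf1, had 45.3, 34.7, 16.85 and 29.03 CPM at D30 against 393 and 285 CPM at 36.5 dpp (-4.05, SE 0.86, edgeR adjusted p = 0.000506). Dnmt3l, a cofactor of DNA methylation, had 1.47 to 2.94 CPM at D30 against 15.1 and 13.7 CPM (-3.29, SE 0.31, edgeR adjusted p = 1.84e-07). Neither gene overlapped between the groups. The other lower genes were Tdrd6 (-1.67), Spocd1 (-1.55), Tdrd7 (-1.48), Rnf17 (-1.34), Tcfl5 (-1.33), Tdrd12 (-0.94), Tdrd1 (-0.75) and Exd1 (-0.68). Fkbp6 (0.87), Morc1 (0.83) and Prmt5 (0.41) were called higher, with edgeR adjusted p = 0.00312, 0.000369 and 0.0123. By library size alone 6 of the 21 were called lower, which were Gtsf1l, Dnmt3l, Tdrd6, Tdrd7, Rnf17 and Tcfl5, and 6 higher. Spocd1 (-0.92), Tdrd12 (-0.32), Tdrd1 (-0.12) and Exd1 (-0.05) were then not called, and Tdrkh (0.55), Pnldc1 (0.91) and Btbd18 (1.06) were called higher. With RLE factors 11 were called lower and 2 higher, and Prmt5 was not called (0.15).

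At D4, Mybl1, the transcription factor A-MYB of pachytene spermatocytes, was higher than at 10.5 dpp (1.22, SE 0.31, edgeR adjusted p = 0.0174), as was Dnmt3l (1.08, SE 0.31, edgeR adjusted p = 0.0406), which was not called by library size alone (0.99). Pnldc1, the nuclease that trims piRNAs, was lower (-0.67, SE 0.15, edgeR adjusted p = 0.0073), and so was Prmt5, a methyltransferase of PIWI proteins (-0.45, SE 0.12, edgeR adjusted p = 0.0325). Dnmt3l was near 1 CPM in both groups, with means of 1.69 and 0.846 CPM. In the fit of the D4 and 10.5 dpp libraries alone, 2 of the 20 genes tested were called higher and 10 lower.

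**Figure D4:**
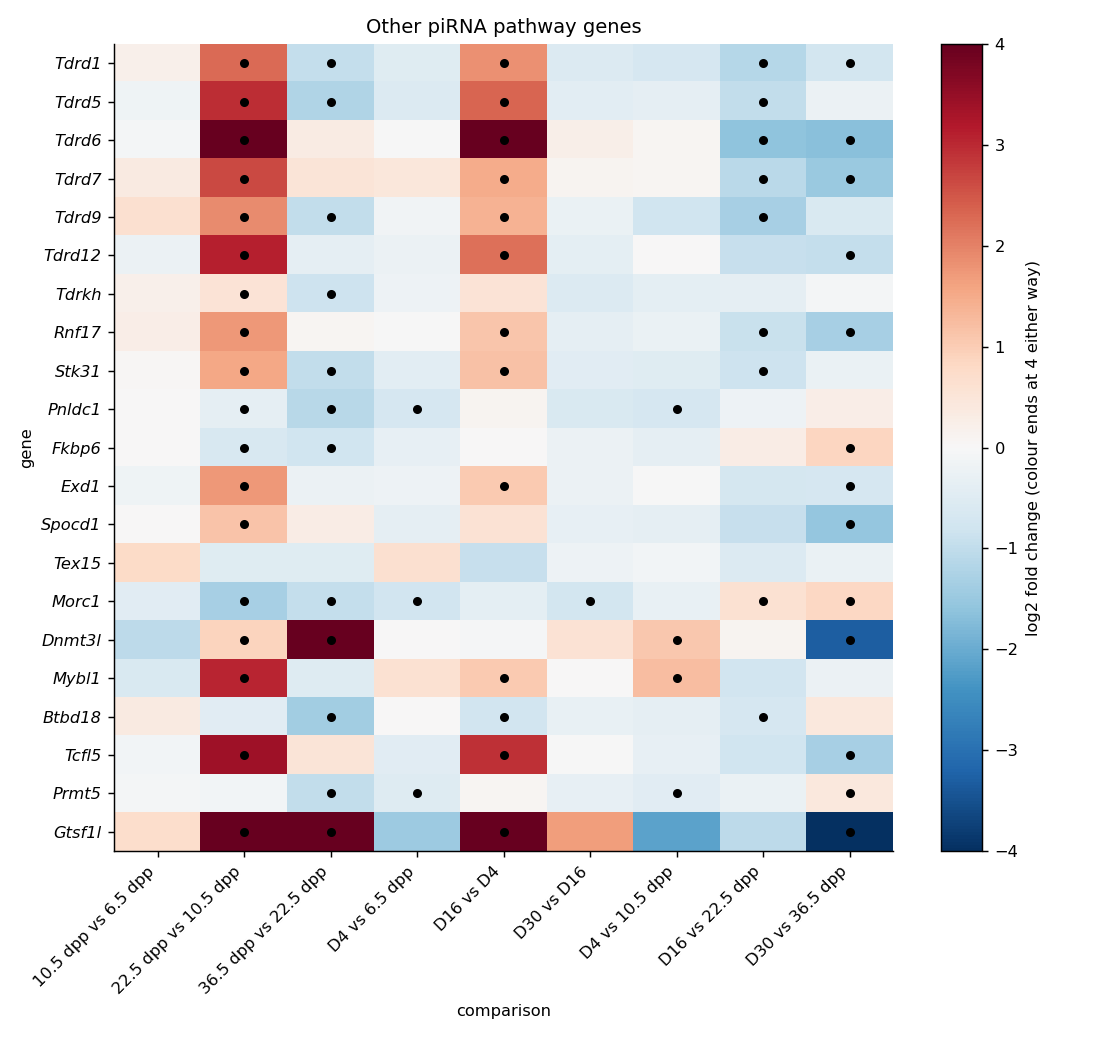
Log2 fold change (edgeR, TMM) of the 21 other piRNA pathway genes in 9 comparisons, with a dot where called. Tdrd6 and Gtsf1l held large steps at 22.5 dpp and D16, and the D30 column against 36.5 dpp shows 10 genes called lower and 3 higher.

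Fresh and frozen tissue were set side by side without a test, since 1 library stood alone on one side at each stage. At 6.5 dpp the fresh library lay within the range of the CSF libraries for 8 of the 10 genes, above it for Piwil4 (17.8 against 7.48 to 13.6 CPM) and below it for Pld6 (22.4 against 22.5 to 42.0 CPM). At D30 the frozen explant lay within the range of the fresh explants for 7, above it for Asz1 (52.0 against 25.5 to 51.8 CPM), and below it for Piwil2 (188 against 194 to 294 CPM) and Mov10l1 (117 against 126 to 182 CPM). With TMM-scaled CPM, 4 rather than 5 of these positions lay outside the range. In the frozen D30 explant, genes with short transcripts lay higher than genes with long ones relative to the other D30 libraries, by 0.48 on the log2 scale. The same difference was -0.59 in D30 fresh replicate 3. Piwil2 (4916 bases) and Mov10l1 (4133 bases) have long transcripts, as has Piwil1 (4016 bases), which lay within the range. The part of this difference in these positions was not tested.

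The genes whose course was most like each PIWI gene were named by Pearson's r of log2(CPM + 1) over the 21 libraries, which share their stages and depth, among 15764 genes. For Piwil1 they were Mapk15 (r = 0.998), Tcam1 (0.996) and Dnah14 (0.995), for Piwil2 Snx27 (0.969), Kntc1 (0.947) and Cep85 (0.946), and for Piwil4 Esrp1 (0.986), Pnma5 (0.984) and Nynrin (0.981). Among the 10 genes, Mael and Gtsf1 had r = 0.98, Ddx4 and Henmt1 0.97, and Piwil2 and Mov10l1 0.93, while Piwil4 had -0.81 with Piwil1 and -0.88 with both Mael and Gtsf1. Asz1 had no r above 0.37 with any of the others.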

How the data were processed

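Poly(A) RNA of the samples was sequenced by the authors as single-end reads of 50 bases from stranded libraries. Per the submitters' processing notes and the study's methods, reads were demultiplexed with bcl2fastq 2.17.1.14, aligned to GRCm38/mm10 with STAR 2.7.3a and counted per NCBI gene with HTSeq 0.12.4. The deposited values are these raw counts, not normalised, in 23 columns. The strand setting and annotation release were not given in the sources used here. Without molecular identifiers, reads are not independent molecules.

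CPM were computed on the library total. Symbols came from the RefSeq table of GRCm38.p6, in which 27373 of 27466 identifiers were found, and lengths from GENCODE M21. Counts were tested with edgeR 4.0.16 in R 4.3.3 (quasi-likelihood F test, TMM factors, filterByExpr by stage) in a single fit of 7 stages and 21 libraries, fresh and frozen tissue pooled as in the study, with Benjamini-Hochberg adjustment over all 19255 genes tested. A gene was called at an adjusted p under 0.05. The 6.5 dpp fresh replicate 1 was left out because its counts went against its label and fresh replicate 3 because it repeated replicate 2. Alternatives were RLE factors, library size alone, no filter, DESeq2 1.42.0, the study's stricter threshold, fresh libraries only, fresh replicate 1 kept, only the compared stages, the replicate number as a block, and each library left out. The genes named were the 10, those of the 21 other pathway genes that passed in an age-matched comparison, and the 3 genes nearest each PIWI gene. These genes and lists were chosen with earlier results of these data known.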

Additional observations from a re-analysis of the deposited data

Results flagged for a closer look

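The library labelled 6.5 dpp fresh replicate 1, which entered none of the main comparisons, held 778.1 CPM of Piwil1, 502.9 of Piwil2, 246.8 of Mov10l1, 713.4 of Ddx4, 619.7 of Mael, 85.5 of Gtsf1, 79.38 of Pld6 and 35.2 of Henmt1, each above all other libraries of its age. Its Piwil1 level was 85.2-fold the highest of the others, while its Piwil4 level of 6.382 CPM lay below all of them.

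The Pld6 level of 6.5 dpp CSF replicate 3 stood apart from the other 3 libraries of that age, with a gap to the nearest that made up 0.968 of the whole range. This is above Dixon's limit for 4 samples. This was the only such case among 20 groups examined, of which chance flags about 1.

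The difference between culture and testis changed from D16 to D30 for Mov10l1, by 1.03 on the log2 scale (edgeR adjusted p = 0.0481). The call was lost in 8 of the 11 fits that left out 1 library, with RLE factors, with DESeq2, with no filter and with only the compared stages fitted, and 11.5% of all genes were called higher in that contrast.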

How the results depend on the processing

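Of 1850 values of single genes under other settings, 1695 kept their side of the threshold, of which 65 were uncalled values that changed sign. Most of the 1850 were not called in the main fit and most of the 1695 stayed uncalled, so 1695 does not measure how often calls held. Of the rest, 114 lost a call and 41 gained 1, and 0 values called in either setting changed sign. By library size alone, 2 genes were called at D16 and 4 at D30 against the matched testis. Over all genes, that setting called 3250 higher and 1526 lower at D16, and 8833 higher and 4586 lower at D30. DESeq2 called 1 gene from D16 to D30 and 1 for the change of the culture effect from D4 to D16. For its change from D16 to D30, 0 were called by DESeq2, with RLE factors, with no filter, with 6.5 dpp fresh replicate 1 kept and with only the compared stages fitted. At the study's stricter threshold (log2 fold change of at least 2, adjusted p of at most 0.001), 4 genes were called from 10.5 to 22.5 dpp, 3 from D4 to D16, 1 at D30 against 36.5 dpp and 0 in the other comparisons. With fresh libraries only, 0 were called at D4 against 6.5 dpp. With 6.5 dpp fresh replicate 1 kept, 1 was called at D4 against 6.5 dpp, 0 at D4 against 10.5 dpp and 0 at D16 against 22.5 dpp. With only the compared stages fitted, 8 were called at D4 against 10.5 dpp, 2 at D16 against 22.5 dpp and 2 for the change of the culture effect from D4 to D16. The causes were not tested. Calls over all genes were counted only with TMM, RLE factors or library size alone, and for the D4 and 10.5 dpp libraries fitted alone. The other counts of this section stand without such a share.

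With 1 library left out, the counts ran from 0 to 2 at D4 against 6.5 dpp, 0 to 1 at D4 against 10.5 dpp, 0 to 4 at D16 against 22.5 dpp, 3 to 7 at D30 against 36.5 dpp, 0 to 1 from D16 to D30 and 0 to 1 for the change of the culture effect from D16 to D30. In an alternative chosen after seeing the data, 6.5 dpp CSF replicate 3 and 36.5 dpp replicate 1 were both left out. It called 1 gene at D4 against 6.5 dpp, 2 at D4 against 10.5 dpp, 4 at D30 against 36.5 dpp and 1 for the change of the culture effect from D4 to D16. With the replicate block, 1 gene was called at D4 against 6.5 dpp, where 2 were called without it, and 9 rather than 10 from 10.5 to 22.5 dpp. No pairing of the libraries by replicate number was detected, which does not exclude one, since each stage held few libraries. Deviations from the stage mean correlated above 0.1 in 16 of 64 pairs with the same number (median r 0.01) and in 27 of 123 pairs with another number (median r -0.01). Of 21 libraries, 8 correlated best with their own number. By Spearman's rho, 1 of the 3 nearest genes of each PIWI gene was shared with the list by Pearson's r.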
